A study of Arabidopsis thaliana with 45 samples.

Results

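The comparison of S2γ30 with S2γ0 was described through the 200 bp windows that its authors listed as differentially methylated. S2γ30 plants were second-generation offspring of Arabidopsis thaliana Columbia exposed to 30 mGy/h gamma radiation from a Cs-137 source for 2 weeks, grown from seeds of S1 plants that had been irradiated, themselves the offspring of irradiated P0 plants. S2γ0 plants were the same generation of a line under natural background radiation in every generation, kept in a separate chamber during the exposure. The plants were 14 days old at the start by the sample labels and younger in the study's methods. Both groups shared the hydroponic growth, the harvest of whole rosettes directly after the exposure and bisulfite sequencing of the whole genome, which reads a cytosine as thymine unless it carries a methyl group. Each group held 5 plant samples, 10 of the 45 samples of the series. Whether the plants of a group came from different mothers is not given in the sources used here. The current exposure, the irradiation of earlier generations, the descent of the line and the chamber cannot be told apart. The members are all windows of this comparison, each counted once: 790 entries came to 772 windows, of which 771 were in CG and 1 in CHG context. The 18 comparisons of the series list 3273 CG windows in all. Against the 567185 windows of the reference sequence that hold a CG, the 771 listed windows come to 0.136%. The 458 windows with a higher level in S2γ30 come to 0.0807%, and the 313 with a lower level to 0.0552%.

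Each window has a methylation level for each group, the share of methylated cytosines as a fraction, pooled over the 5 samples. The spread between plants and the number of reads behind a level are therefore unknown, no test of a window could be made here, and the values below are a description. Only windows that passed the authors' p-value filter and had a difference of at least 20% are listed. Every difference given was therefore above that minimum by construction. A level of 0.5 cannot tell apart all cells carrying a methylated chromosome and its unmethylated copy from some cells or plants being methylated and others not.

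In plants, CG methylation is copied to the new DNA strand by the methyltransferase MET1, so that a CG site can keep its state through cell divisions and from parent to offspring. In the body of many expressed genes only CG sites are methylated, mostly away from the gene's start. In TEs (transposable elements), CG, CHG and CHH sites are methylated together, where H is any base but G, and the small RNA pathway with AGO4 guides new methylation there.

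The number of CG sites in a window bounds what its level can tell, and the following windows show this. They are printed 5′ to 3′ on the plus strand of the TAIR10.1 reference, with each CG in capitals. The MLO8 window (chr2:7591801-7592000) and the FBH2 window (chr4:5848601-5848800) each hold 1 CG and had the largest difference upwards and downwards. The FPA window (chr2:18028201-18028400) holds 3 CG and has the median difference of windows of that kind. The AGO4 windows (chr2:11540001-11540200 and chr2:11540201-11540400) touch and had opposite signs. The window near AT5G05830 (chr5:1755001-1755200) was listed for CG and for CHG, and the window near AT3G20170 (chr3:7040601-7040800) has 10 CG.
MLO8 window: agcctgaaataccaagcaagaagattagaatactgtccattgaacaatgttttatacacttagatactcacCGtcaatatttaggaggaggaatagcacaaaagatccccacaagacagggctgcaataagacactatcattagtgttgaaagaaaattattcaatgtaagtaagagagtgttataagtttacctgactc
FBH2 window: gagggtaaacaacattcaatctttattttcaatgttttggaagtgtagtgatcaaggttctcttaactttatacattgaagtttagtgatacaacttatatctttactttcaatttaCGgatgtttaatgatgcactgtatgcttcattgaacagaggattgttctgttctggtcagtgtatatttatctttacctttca
FPA window: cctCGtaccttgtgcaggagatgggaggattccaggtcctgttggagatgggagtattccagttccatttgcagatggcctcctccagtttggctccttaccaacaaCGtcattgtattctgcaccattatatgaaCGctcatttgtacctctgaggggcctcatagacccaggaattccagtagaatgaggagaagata
AGO4 first window: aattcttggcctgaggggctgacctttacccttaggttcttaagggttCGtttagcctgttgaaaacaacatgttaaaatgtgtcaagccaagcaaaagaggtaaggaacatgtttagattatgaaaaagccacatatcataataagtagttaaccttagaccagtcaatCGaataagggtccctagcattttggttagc
AGO4 second window: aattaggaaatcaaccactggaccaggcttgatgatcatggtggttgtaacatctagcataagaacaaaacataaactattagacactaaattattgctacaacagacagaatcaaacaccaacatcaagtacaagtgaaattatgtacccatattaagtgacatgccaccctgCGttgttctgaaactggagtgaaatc
AT5G05830 window: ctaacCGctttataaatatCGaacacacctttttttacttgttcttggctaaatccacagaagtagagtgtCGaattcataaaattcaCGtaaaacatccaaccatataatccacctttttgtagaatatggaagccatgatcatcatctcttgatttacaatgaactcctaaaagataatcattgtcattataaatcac
AT3G20170 window: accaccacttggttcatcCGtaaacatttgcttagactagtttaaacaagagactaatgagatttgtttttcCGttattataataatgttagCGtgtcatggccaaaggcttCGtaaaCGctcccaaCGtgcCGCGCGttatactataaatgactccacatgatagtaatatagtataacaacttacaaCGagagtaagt

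The single CG of the MLO8 window, in the coding sequence of a gene of the MLO family of membrane proteins, had a level of 0.90 in S2γ30 and 0.0256 in S2γ0. The FBH2 window, in an intron of a bHLH transcription factor gene, had 0.0174 in S2γ30 and 0.930 in S2γ0. The levels of these sites were thus near both ends of the scale in opposite groups. The FPA window, in the coding sequence of an RNA-binding protein that promotes flowering, had 0.0255 in S2γ30 and 0.298 in S2γ0, a difference of 0.273 over 3 CG.

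The 771 CG windows covered most of both scales, as the plot of both levels shows, apart from the strip around equal levels that the listing minimum leaves empty. In 409 windows (53.0%) the lower of the 2 levels was under 0.10. In 207 windows the level was intermediate (0.10 to 0.60) in S2γ30 and under 0.10 in S2γ0, with medians of 0.336 and 0.0352. The opposite, under 0.10 in S2γ30 and intermediate in S2γ0, was found in 131 windows, with medians of 0.0159 and 0.345. A further 128 windows were at 0.60 or more in S2γ30 and intermediate in S2γ0 (medians of 0.803 and 0.414), and 81 were intermediate in S2γ30 and at 0.60 or more in S2γ0 (medians of 0.438 and 0.784). Full changes of state, under 0.10 in either group and at 0.60 or more in the other, were found in 71 windows (9.21%), 34 with the high level in S2γ30 and 37 with the high level in S2γ0. This share depends on the limits, with 4.28% at 0.05 and 0.70 and 19.8% at 0.20 and 0.50, and it was 3.51% in windows with at least 3 CG. Both levels were at 0.60 or more in 62 windows, of which 44 were higher and 18 lower in S2γ30. Both were intermediate in 91 windows, of which 45 were higher and 46 lower. A difference of more than 0.8 was reached by 20 windows, 9 higher and 11 lower in S2γ30.

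**Figure D1:**
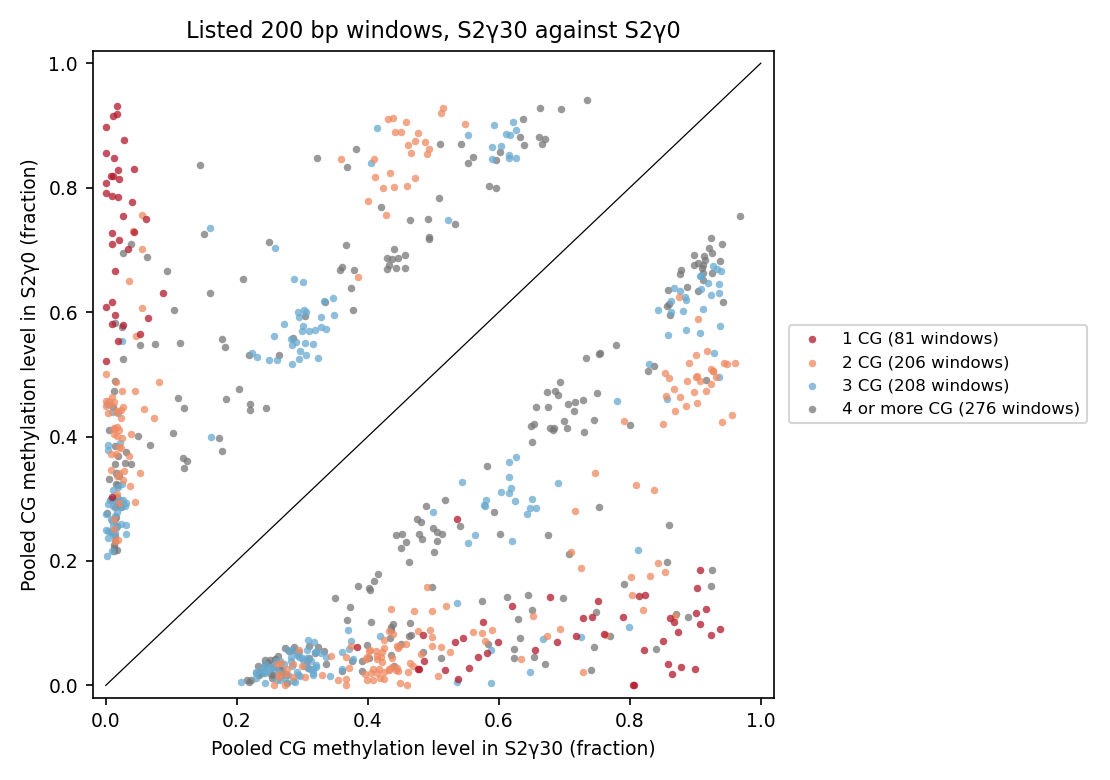
Pooled CG methylation level (fraction) of each of the 771 listed windows in S2γ30 (horizontal axis) and S2γ0 (vertical axis); each point is a window, coloured by its number of CG sites, and the line marks equal levels. The lower level is under 0.10 in 65 of the 81 windows with 1 CG, in 130 of 206 with 2 and in 108 of 208 with 3.

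The size of the difference followed the number of CG sites. The median absolute difference was 0.686 in the 81 windows with 1 CG, 0.399 in the 206 windows with 2 and 0.273 in the 208 windows with 3. Multiplied by the number of sites, these differences had medians of 0.686, 0.798 and 0.818 site equivalents, that is the change of a single site that would give the same window level if all sites had equal reads. Of the windows with 2 CG, where the listing minimum requires a product of at least 0.4, 75.2% had a product between 0.6 and 1. With 3 CG the minimum requires at least 0.6, so that the product of 0.818 is partly set by the listing. The authors' p-value filter may also bear on the sizes listed at each number of CG sites, which could not be examined. With 2 CG, 103 of 206 windows had a lower level under 0.10 beside a higher level between 0.3 and 0.6, and 58 had a lower level between 0.3 and 0.6 beside a higher level of at least 0.7. In 10 windows with 2 CG the lower level was under 0.10 and the higher at least 0.60. For windows with 4 or more CG the listing minimum itself requires a product of at least 0.8, so their larger products (medians of 1.06 with 4 and 1.33 with 5) cannot be compared with the others. Windows with 2 CG made up 26.7% of the list and 14.4% of the reference windows with a CG, and windows with 6 or more made up 8.56% and 32.9%. The share higher in S2γ30 was between 51.6% and 63.5% at each number of sites.

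**Figure D2:**
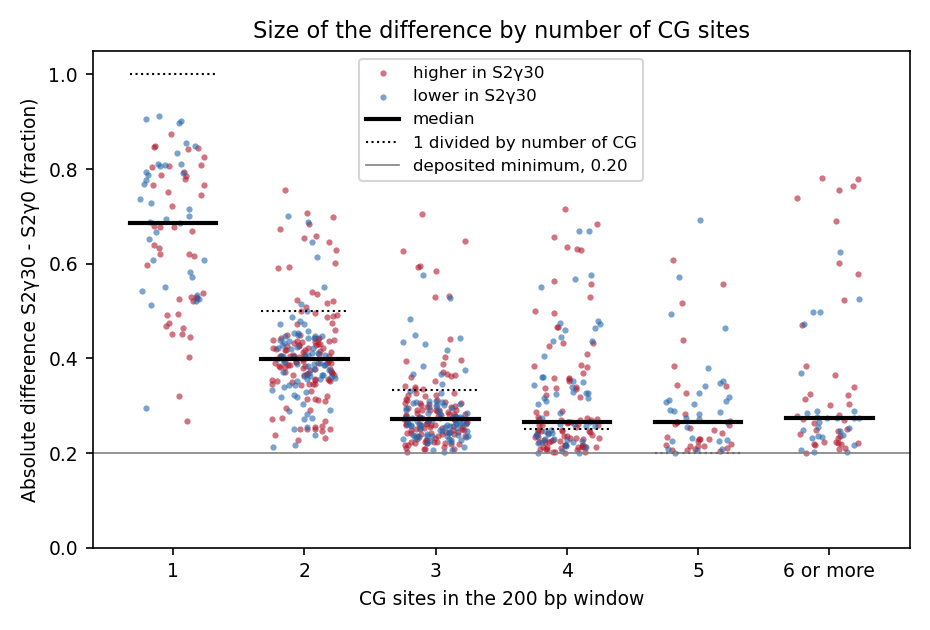
Absolute difference of the pooled level between S2γ30 and S2γ0 (fraction) against the number of CG sites in the window; red points were higher and blue points lower in S2γ30, thick bars are medians, dotted bars are 1 divided by the number of sites and the grey line is the listing minimum. The median is 0.686 with 1 CG and 0.273 with 3 CG, and stays near 0.27 above that, next to the minimum.

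In 57 windows (7.39%) the difference amounted to at least 2 site equivalents, 37 higher and 20 lower in S2γ30. Of these, 15 (26.3%) lay in a TE, against 63 of the other 714 (8.82%). Windows with 1 CG cannot reach 2 site equivalents, and windows with many CG reach them at smaller differences. The contrast thus also sets windows with many CG against windows with few. The largest of the 57 was the window near AT3G20170, outside genes and TEs, with 0.871 in S2γ30 and 0.115 in S2γ0 over 10 CG. The short gene AT5G65005 (chr5:25967824-25968638), annotated as a ribonuclease H-like protein, followed with touching windows of 6 and 9 CG. Their levels were 0.926 and 0.924 in S2γ30, against 0.186 and 0.160 in S2γ0. A window with 10 CG near JAL8 had 0.859 in S2γ30 and 0.258 in S2γ0. Among the lower windows, that near CYP702A5 in AT4TE39270 had 0.0267 in S2γ30 and 0.524 in S2γ0 over 8 CG. A window in MMT, which codes for methionine S-methyltransferase, had 0.145 in S2γ30 and 0.836 in S2γ0 over 5 CG.

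Most windows lay in genes. Of the 771, 644 (83.5%) overlapped a protein-coding gene, against 58.6% of the reference windows with a CG. The windows held 2514 CG sites, of which 61.1% were in coding sequence (41.0% of all CG sites of the reference) and 18.3% in introns (8.53%). Other exons held 3.98% of the sites (9.51% in the reference), the 2 kb upstream of genes 8.11% (15.2%) and the remaining intergenic sequence 6.64% (13.9%). Each gene was divided into 5 equal parts from start to end. The first part held 4.21% of the 2068 sites that lay in a single gene, against 25.5% of such sites in the reference. The fourth part held 32.2% (19.4% in the reference) and the last part 18.5% (16.6%). The share of sites in windows higher in S2γ30 was 67.8% in the first part and 51.8% in the third. How many windows had the coverage to be tested in each of these places is not given in the sources used here.

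**Figure D3:**
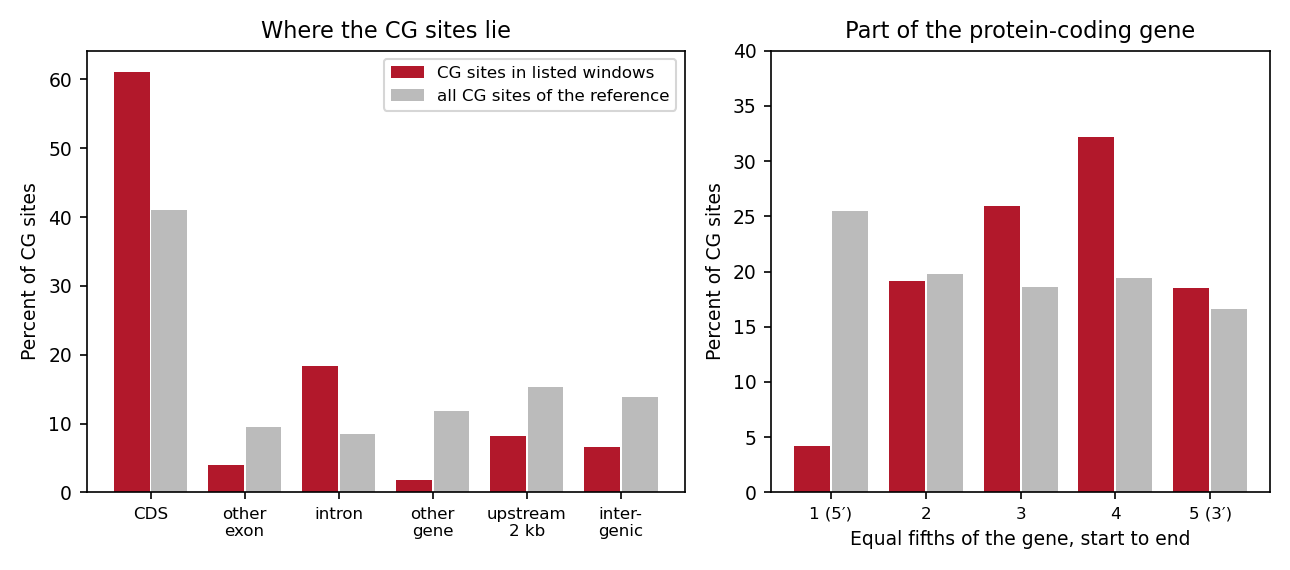
Percent of CG sites by place in the annotation (left) and by position among 5 equal parts of the protein-coding gene from start to end (right); red bars are the CG sites of the listed windows and grey bars all CG sites of the reference. The first part holds 4.21% of the sites in listed windows and 25.5% of the reference sites, and the fourth 32.2% and 19.4%.

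The largest increases in genes, besides MLO8, were single sites. AT2G42270, coding for a U5 small nuclear ribonucleoprotein helicase of the splicing machinery, had 0.878 in S2γ30 and 0.0301 in S2γ0. REV1, a DNA polymerase of translesion synthesis, had 0.938 in S2γ30 and 0.0909 in S2γ0. LIS, a Prp4-like splicing protein, had 0.924 in S2γ30 and 0.0806 in S2γ0. UBA 2, a ubiquitin-activating enzyme, had 0.907 in S2γ30 and 0.0992 in S2γ0. The windows of AT3G27870, TPR16 and AT1G17930 had 0.807 to 0.864 in S2γ30 and 0 to 0.0336 in S2γ0. All of these windows hold 1 CG, so each value rests on a single site.

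The largest decreases after FBH2 were also single sites. XRN2, a nuclear exoribonuclease, had 0.0106 in S2γ30 and 0.915 in S2γ0. EDR1, a Raf-like kinase that restrains defence against powdery mildew, had 0 in S2γ30 and 0.898 in S2γ0. The ARM repeat protein gene AT5G15680 had 0.0168 in S2γ30 and 0.919 in S2γ0. VPS54, a subunit of a vesicle tethering complex, had 0.0127 in S2γ30 and 0.847 in S2γ0. The remaining 3 of the 8 largest, AT2G47090, AT4G19010 and TPP2, had 0.00763 to 0.0275 in S2γ30 and 0.818 to 0.876 in S2γ0.

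Just inside the listing minimum, NET1B had 0.232 in S2γ30 and 0.0316 in S2γ0, and TBL13 had 0.489 in S2γ30 and 0.288 in S2γ0. On the lower side AT2G36810 had 0.177 in S2γ30 and 0.377 in S2γ0, and ACX1, an acyl-CoA oxidase, had 0.0169 in S2γ30 and 0.217 in S2γ0. Windows just outside the minimum are not listed.

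The 644 windows lay in 635 protein-coding genes, 2.31% of the 27444 in the annotation. Of these genes 608 had 1 window, 27 had 2 and 0 had 3 or more. Among the 27 genes with 2 windows, both were higher in S2γ30 in 4, both were lower in 8, and the signs were opposite in 15. Genes with a window had a median length of 3552 bp and those with 2 windows 4942 bp, against 2078 bp for all protein-coding genes. XIF, a myosin gene, had 0.0550 and 0.411 in S2γ30, against 0.756 and 0.817 in S2γ0, in windows near its ends. AT5G01760 had 0.00980 and 0.182 in S2γ30, against 0.710 and 0.544 in S2γ0. AT5G64220, which codes for a calmodulin-binding transcription activator, had 0.0272 and 0.414 in S2γ30, against 0.345 and 0.896 in S2γ0. These genes were lower in S2γ30 at both windows.

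In other genes the windows went in opposite directions. The actin-binding villin gene VLN4 had 0.805 and 0.430 in S2γ30, against 0 and 0.669 in S2γ0. The receptor-like kinase gene AT5G41180 had 0.0270 and 0.498 in S2γ30, against 0.579 and 0.0627 in S2γ0. AT2G36720 had 0.651 and 0 in S2γ30, against 0.299 and 0.50 in S2γ0. In AGO4 the opposite windows touched. Both CG of its first window, printed above, had together 0 in S2γ30 and 0.449 in S2γ0, and the single CG of the second had 0.902 in S2γ30 and 0.156 in S2γ0. A difference in 1 direction did not extend over these genes.

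Across the genome, 16 pairs of listed windows touched, and 14 of them had the same sign, 7 higher and 7 lower in S2γ30. At more than 200 and up to 1000 bp, 4 of 11 neighbouring pairs had the same sign, and at more than 1000 and up to 5000 bp 8 of 26. The 2 touching pairs with opposite signs were in AGO4 and in BGLU42, a beta-glucosidase gene with 0.461 and 0.615 in S2γ30, against 0.868 and 0.309 in S2γ0. Of the 16 pairs, 8 lay outside protein-coding genes. Near SGR2, windows over AT4TE31075 had 0.538 and 0.840 in S2γ30, against 0.0106 and 0.0586 in S2γ0. Near LSM7, they had 0.809 and 0.769 in S2γ30, against 0.322 and 0.0786 in S2γ0. Near SERK5, windows over AT2TE23305 and AT2TE23310 had 0.159 and 0.249 in S2γ30, against 0.734 and 0.713 in S2γ0.

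The single CHG window shared its place with a CG window, outside genes and upstream of AT5G05830. In CHG context its level was 0.315 in S2γ30 and 0.0263 in S2γ0, and in CG context 0.741 in S2γ30 and 0.0249 in S2γ0 over the 4 CG shown above. The touching CG window before it had 0.424 in S2γ30 and 0.0208 in S2γ0. Of the windows of the reference with a CHG on the plus strand, 1 listed window is 1.74e-04%. It was also listed against P0γ30 and S1γ30, comparisons that share S2γ30, where its CHG level was 0.00549 in P0γ30 and 0 in S1γ30.

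A TE was listed for 78 windows (10.1%), of which 10 also overlapped a gene. The share of reference windows that lie in a TE was not computed, since no TE annotation was used here, so this share has no background beside it. In 58 of the 78 the level was higher in S2γ30 (74.4%, exact binomial interval 63.2% to 83.6%), and in windows with a gene only 360 of 634 (56.8%, 52.8% to 60.7%). These intervals cover the counting of windows alone and not the spread between plants, and windows that touch are not independent. The median levels of the TE windows were 0.565 in S2γ30 and 0.143 in S2γ0, and those of windows with a gene only 0.383 in S2γ30 and 0.358 in S2γ0. The windows named 93 TEs, and 3 of them held 2 windows, both higher in S2γ30 each time. AT2TE15475 had 0.873 in S2γ30 and 0.0854 in S2γ0 at 1 CG, and AT3TE54480 had 0.889 in S2γ30 and 0.110 in S2γ0 over 7 CG. AT5TE30860 and 2 TEs beside it had 0.869 in S2γ30 and 0.112 in S2γ0, and AT1TE31960 0.908 in S2γ30 and 0.185 in S2γ0. These 4 were picked for their large increases, so a low level in S2γ0 beside a level above 0.8 in S2γ30 comes with the choice. Among the lower windows, AT4TE24045 had 0 in S2γ30 and 0.855 in S2γ0, and AT4TE21325 had 0.0548 in S2γ30 and 0.701 in S2γ0. AT4TE20760 had 0.149 in S2γ30 and 0.725 in S2γ0, and AT3TE18060 had 0.0939 in S2γ30 and 0.665 in S2γ0.

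Outside genes and TEs lay 59 windows, of which 40 were higher and 19 lower in S2γ30. The share higher was 67.8% (exact binomial interval 54.4% to 79.4%, with the same limits as above). Their median levels were 0.484 in S2γ30 and 0.140 in S2γ0, close to those of the TE windows. A high share of higher windows was thus not particular to TEs. Besides the windows near AT3G20170 and AT5G05830, that near APY1, an apyrase gene, had 0.820 in S2γ30 and 0.121 in S2γ0. On the lower side a window near AT4G31330 had 0.0408 in S2γ30 and 0.730 in S2γ0. A touching pair in AT4G08136, not a protein-coding gene, had 0.0261 and 0.0614 in S2γ30, against 0.695 and 0.750 in S2γ0.

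Windows were unevenly spread over the chromosomes. Listed windows made up 0.169% of the reference windows with a CG on chromosome 4, 0.165% on chromosome 5, 0.150% on chromosome 2, 0.117% on chromosome 1 and 0.0891% on chromosome 3. On chromosome 3, 74 of 100 windows were higher in S2γ30, and on chromosome 4 76 of 150. The pericentromeres held 57 windows (7.39%) and 16.9% of the reference windows. Under a narrower definition, a coding share under 0.25 of the median, they held 2.33% of the listed and 11.1% of the reference windows. Of these 57, 24 lay in a TE and 18 in a gene, while on the arms 54 of 714 lay in a TE. Among the 121 stretches of 1 Mb the median was 6 windows, and 6 had 0. The first 2 stretches of chromosome 5 had 28 and 33, and the next highest count anywhere was 15.

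The first 2 Mb of chromosome 5 thus held 61 windows (7.91%) on 1.70% of the reference windows, and 0.633% of its reference windows were listed, against 0.127% over the rest of the genome. Of these, 27 were higher and 34 lower in S2γ30, 57 lay in 53 genes and 1 in a TE. The adjoining stretch of 2 to 4 Mb held 28 windows, 0.291% of its reference windows. The median distance between neighbours in the first 2 Mb was 19600 bp, so the windows were scattered over the stretch. Their median absolute difference was 0.288. PRR7, a circadian clock gene, had 0.867 in S2γ30 and 0.477 in S2γ0, and CTR1, a kinase that represses ethylene signalling, had 0.735 in S2γ30 and 0.942 in S2γ0. ATE1, an arginyltransferase of the N-degron pathway of protein breakdown, had 0.370 in S2γ30 and 0.0882 in S2γ0. PRT6, a ubiquitin ligase of the same pathway, had windows at 0.879 and 0.477 in S2γ30, against 0.668 and 0.887 in S2γ0. CPL2 had 0.367 in S2γ30 and 0 in S2γ0. These genes and the stretch were chosen after their values were seen. In comparisons without S2γ30 and S2γ0, the stretch held 4 of 184 windows of S1γ30 against P0γ30, 1 of 129 of S1γ30 against S1γ0 and 1 of 37 of S1γ110 against S1γ30. It also held 44 of the 272 windows of S2γ30 against P0γ30 and 65 of the 1844 of S2γ30 against S1γ30, both of which share S2γ30.

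**Figure D4:**
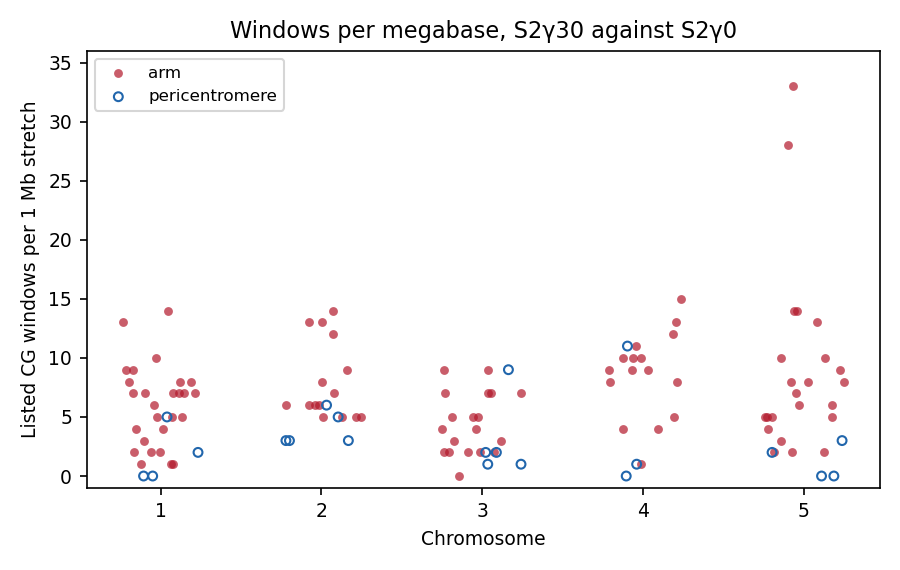
Number of listed CG windows in each 1 Mb stretch (vertical axis) by chromosome; each point is a stretch, filled red on the arms and open blue in the pericentromere, with sideways scatter for legibility. Both of the first stretches of chromosome 5 stand apart at 28 and 33 windows, above a next highest count of 15.

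Of 32 genes of the DNA methylation machinery 2 had a window (6.25%), beside 2.31% of all protein-coding genes. They were AGO4, described above, and SUVH9, an SRA-domain protein of RNA-directed DNA methylation, with 0.671 in S2γ30 and 0.879 in S2γ0 over 8 CG. MET1, DDM1, CMT3, DRM2 and ROS1 were among the 30 without one. FDM5, an XH/XS domain gene outside this list, also had a window, with 0.316 in S2γ30 and 0.549 in S2γ0. Of 44 genes of DNA damage response and repair 5 had a window (11.4%), 3 higher and 2 lower in S2γ30. They were REV1, described above, and 4 others. PARP1, a poly(ADP-ribose) polymerase, had 0.402 in S2γ30 and 0.0433 in S2γ0. This window reaches only the 3′ end of PARP1 and is shared with LBD14, a LOB domain gene. BRCA2B, of homologous recombination, had 0.218 in S2γ30 and 0.00502 in S2γ0. SMC5, of the SMC5/6 complex, had 0.637 in S2γ30 and 0.911 in S2γ0, and UVH1, the XPF repair endonuclease, had 0.447 in S2γ30 and 0.687 in S2γ0. Of 27 listed genes of antioxidant enzymes 0 had a window. The peroxiredoxin gene 2-Cys Prx B is not on that list and had 2 windows. The counts of these lists therefore cover the listed genes only. The genes of these lists are long, with medians of 4964, 5164.5 and 2712 bp, against 2078 bp for all, and a long gene offers more windows. These counts are too small to call anything particular to a list.

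Lists made from words in the gene descriptions gave shares on both sides of 2.31%. Such lists, here and in the next paragraph, miss genes described in other words and take in some that only share the word. Of 93 genes with a DNA repair word 4 had a window (4.30%), 2 higher and 2 lower. NTH2, an endonuclease III, AT3G47830, a DNA glycosylase, and AT4G25290, a DNA photolyase, have a window but are on neither repair list. The counts and directions therefore cover the listed genes only. LIG6, a DNA ligase, had 0.0397 in S2γ30 and 0.777 in S2γ0, and MLH3, of mismatch repair, had 0.0675 in S2γ30 and 0.387 in S2γ0. EME1A had 0.598 in S2γ30 and 0.0692 in S2γ0, and the BRCT domain gene AT2G26270 had 0.404 in S2γ30 and 0.0202 in S2γ0. Of 219 with a chromatin word 10 had one (4.57%), 7 higher and 3 lower. PKL, a CHD3 chromatin remodeller, had 0.0105 in S2γ30 and 0.819 in S2γ0, TAFII59 had 0.0342 in S2γ30 and 0.702 in S2γ0, and UBP26, a ubiquitin protease of histones, had 0.512 in S2γ30 and 0.920 in S2γ0. The 7 higher members had smaller differences, 0.202 in PKR2 to 0.295 in AT5G07810, where the level was 0.858 in S2γ30 and 0.563 in S2γ0. The AT5G07810 window holds 3 CG, against 1 in PKL and in TAFII59 and 2 in UBP26. Since the difference follows the number of CG sites, the sizes of both directions cannot be compared here. Of 161 with a splicing word 6 had one (3.73%), 4 higher and 2 lower, and the largest 2 were AT2G42270 and LIS. The third, MMH-1, with 0.437 in S2γ30 and 0.0446 in S2γ0, is a DNA glycosylase and not a splicing protein. Of 1461 with the word kinase 43 had one (2.94%), 18 higher only, 22 lower only and 3 with both. After EDR1 these were led by AT5G19150, a carbohydrate kinase, with 0.0427 in S2γ30 and 0.729 in S2γ0, and by the riboflavin kinase gene FMN/FHY, with 0.00885 in S2γ30 and 0.616 in S2γ0.

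Of 308 pentatricopeptide repeat genes, whose proteins process RNA in organelles, 13 had a window (4.22%), 6 higher and 7 lower. AT5G59900 had 0.458 in S2γ30 and 0.906 in S2γ0, MEF7 0.0121 in S2γ30 and 0.456 in S2γ0, and SLO2 0.0123 in S2γ30 and 0.413 in S2γ0. Of 211 disease resistance genes 7 had one (3.32%), 3 higher and 4 lower, among them EDR1 and AT5G35510, with 0.647 in S2γ30 and 0.0209 in S2γ0. Of 821 genes matched by transcription factor words 11 had one (1.34%), 5 higher and 6 lower. FBH2, ARF19 and NPH4 have a window but were not matched, so the share is not that of all transcription factor genes. AT2G47210 had 0 in S2γ30 and 0.792 in S2γ0, and VND7, a regulator of xylem vessels, had 0.159 in S2γ30 and 0.631 in S2γ0. Of 675 F-box genes 5 had one (0.741%), led by EBF2, of ethylene signalling, with 0.822 in S2γ30 and 0.0561 in S2γ0. The F-box genes are short, with a median length of 1384 bp. Of 348 ribosomal protein genes 4 had one (1.15%), of 418 with the word ubiquitin 10 (2.39%), of 130 motor protein genes 5 (3.85%), of 133 of vesicle traffic 3 (2.26%) and of 66 ABC transporter genes 2 (3.03%).

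Few of the 771 windows were listed in comparisons that use neither S2γ30 nor S2γ0, 11 in all (1.43%). The comparison of S2γ110 with S1γ110 lists 14 CG windows (0.00247% of the reference windows), of which 5 are also listed here, 35.7% of that list and 0.649% of this one. In each of the 5, the level in S2γ110 was nearer to that in S2γ30 and the level in S1γ110 nearer to that in S2γ0. In YSL4, a gene of the yellow stripe-like metal transporters, 1 CG had 0.0182 in S2γ30 and 0.786 in S2γ0, beside 0.0171 in S2γ110 and 0.871 in S1γ110. AT5G42660 had 0.867 in S2γ30 and 0.101 in S2γ0, beside 0.867 in S2γ110 and 0 in S1γ110. AT5G59900 had 0.458 in S2γ30 and 0.906 in S2γ0, beside 0.454 in S2γ110 and 0.970 in S1γ110. AT2G26340 had 0.856 in S2γ30 and 0.610 in S2γ0, beside 0.860 in S2γ110 and 0.599 in S1γ110. A window near AT1G52905 in AT1TE65115 had 0.679 in S2γ30 and 0.141 in S2γ0, beside 0.605 in S2γ110 and 0 in S1γ110.

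The comparison of S1γ30 with P0γ30 lists 184 CG windows (0.0324%), 5 of them also here (2.72% of that list and 0.649% of this one). In 4 of these the S1γ30 level was close to that of S2γ30. The window in AT3TE54480 near AT3G32389 had 0.889 in S2γ30 and 0.110 in S2γ0, beside 0.877 in S1γ30 and 0.226 in P0γ30. A window near SCRL5 had 0.00938 in S2γ30 and 0.439 in S2γ0, beside 0.00965 in S1γ30 and 0.443 in P0γ30. A window in 2-Cys Prx B, a chloroplast peroxiredoxin, had 0.0157 in S2γ30 and 0.372 in S2γ0, beside 0.0122 in S1γ30 and 0.395 in P0γ30. A window shared by HCF152 and MCM8 had 0.367 in S2γ30 and 0.0455 in S2γ0, beside 0.392 in S1γ30 and 0.0618 in P0γ30. The last 2 windows are also those shared with S1γ110 against S1γ30, which lists 37 (0.00652%), 5.41% of that list. Their levels in S1γ110 were 0.350 in 2-Cys Prx B and 0.00725 in HCF152 and MCM8. The fifth went the other way: AT5G46420 had 0.678 in S2γ30 and 0.413 in S2γ0, beside 0.168 in S1γ30 and 0.449 in P0γ30.

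In the first generation the same dose rate was set against background by S1γ30 against S1γ0, which lists 129 CG windows (0.0227%). S1γ30 plants had fewer irradiated generations before them than S2γ30 plants, so the contrasts differ in exposure history. Of these 129 windows, 2 are listed here, 1.55% of that list and 0.259% of this one, and their signs differed. AT1G13470 had 0.858 in S2γ30 and 0.636 in S2γ0 over 11 CG, beside 0.866 in S1γ30 and 0.619 in S1γ0. AT5G46420 was higher in S2γ30, as given above, and had 0.168 in S1γ30 and 0.457 in S1γ0. The comparison of S1γ110 with S1γ0 lists 2 windows (3.53e-04%), neither of which is listed here.

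**Figure D5:**
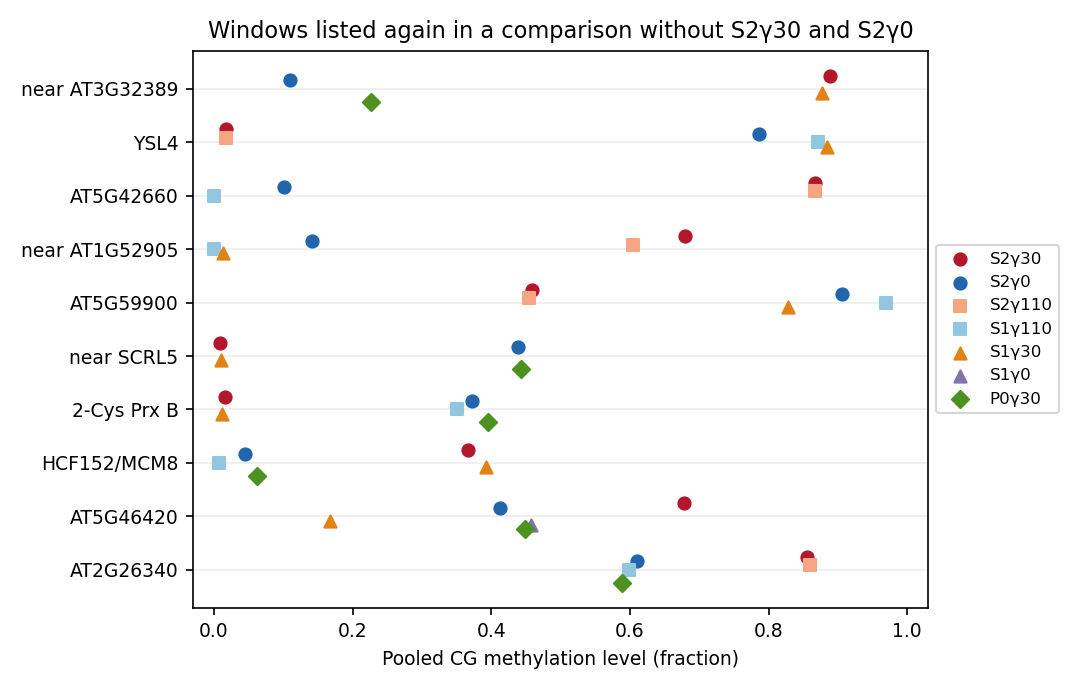
Pooled CG level (fraction) in every group for which it was listed, for the 10 windows with the largest differences among the 11 listed again in a comparison without S2γ30 and S2γ0; each row is a window, named by its gene or as near the gene listed with it. S2γ110 lies next to S2γ30 in 5 rows and S1γ30 next to S2γ30 in 4, while AT5G46420 has S1γ30 at 0.168 and S2γ30 at 0.678.

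The higher dose rate in the same generation shares a group with this comparison, so levels are only set side by side. In S2γ110 against S2γ30, 13 of the 15 listed CG windows are members. AT5G15680 had 0.0168 in S2γ30, against 0.880 in S2γ110, 0.912 in S1γ30, 0.914 in P0γ30 and 0.919 in S2γ0. PDF1B, a peptide deformylase gene, had 0.00402 in S2γ30, against 0.470 in S2γ110, 0.451 in S1γ30, 0.435 in P0γ30 and 0.437 in S2γ0. CPL2 had 0.367 in S2γ30, against 0.00897 in S2γ110, 0.00461 in S1γ30, 0 in P0γ30 and 0 in S2γ0. AT5G08630 had 0.0256 in S2γ30, against 0.775 in S2γ110, 0.848 in S1γ30, 0.836 in P0γ30 and 0.754 in S2γ0. Each of these levels is known only because the window was listed as differing from S2γ30 in that comparison, so that S2γ30 stands apart by the choice of windows. In S2γ110 against S2γ0, 3 of the 5 listed windows are members. They were chosen because both irradiated groups were listed as differing from S2γ0, so their levels are given as values only. AT5G01760 had 0.00980 in S2γ30 and 0.0104 in S2γ110, against 0.710 in S2γ0. AT5G19150 had 0.0427 in S2γ30 and 0.0169 in S2γ110, against 0.729 in S2γ0. Hrd1B, a RING ubiquitin ligase gene, had 0.633 in S2γ30 and 0.647 in S2γ110, against 0.881 in S2γ0.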

How the data were processed

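Rosette DNA of 45 samples in 9 groups of 5 was sequenced after bisulfite conversion. Read mapping to TAIR10.31 and the calling of methylation per context, with a minimum site coverage and sample number, were done by the authors in CLC Genomics Workbench, and p-values of group pairs were adjusted in R 3.5.0. They deposited, for each 200 bp window with a difference of at least 20%, the level of both groups as a fraction, beside p-values, adjusted p-values and differences, which were not used here. The nearest gene was added by CLC and the TE by bedtools. Whether a level weights sites by reads is not given in the sources used here. Coverage and values per sample are not in hand, so depth and precision of a level are unknown and no test was run. No window is listed for 8 of the 18 comparisons.

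Each window was counted once and its difference computed as S2γ30 minus S2γ0. CG sites, genes and positions came from the TAIR10.1 RefSeq sequence and annotation, which has the chromosomes of the authors' build: 0 of the 771 CG windows lacked a CG in it, against 4.79% of all its windows. A CG belongs to the window of its C. Levels repeated in other tables (676) were equal to the digit. The 567185 windows with a CG served as background, since the number the authors tested is not given in the sources used here. The pericentromere of a chromosome was the unbroken stretch, in steps of 500 kb about its minimum of coding sequence, where the coding share was under 0.5 of the chromosome's median. Windows named are the 8 largest differences in genes and 5 in TEs in each direction, 3 outside both, genes with 2 windows by summed difference, list members with a window, the CHG window, windows listed without S2γ30 and S2γ0, and those nearest the minimum. Windows with the largest site equivalents and those compared with S2γ110 were chosen after their values were seen. Members and lists were chosen with earlier results of these data known. Python 3.11.15, NumPy 2.4.6, pandas 2.3.3, SciPy 1.17.1 and matplotlib were used, and counting was tested on simulated data.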

Additional observations from a re-analysis of the deposited data

How the results depend on the processing

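Levels are pooled per group, so leaving out each sample in turn and refitting could not be done, and the spread between plants limits every statement. No paired analysis was possible because the deposited levels carry no sample or replicate number. A wider distance to TEs was not run, since the tables give the name of a TE and not its distance. Of 29 alternatives over 8 results, 15 stayed close to the reported value, among them all those of the share higher in S2γ30. Leaving out the first 2 Mb of chromosome 5, chosen after seeing the data, gave 431 windows higher and 279 lower. With a difference above 0.30, 252 windows were higher and 174 lower, 73.9% lay in genes, 16.4% in TEs and 10.6% in pericentromeres. With at least 3 CG sites, 285 were higher and 199 lower, 87.0% lay in genes and 7.44% in TEs, the share with a full change of state was 3.51% and the median absolute difference 0.270. The share with a full change of state was 4.28% with limits of 0.05 and 0.70 and 19.8% with limits of 0.20 and 0.50. With a coding share under 0.25 of the median, pericentromeres held 2.33%, beside 11.1% of the reference windows. Both filters use fewer windows by construction, and windows with 1 or 2 CG have the larger differences.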

Other observations

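The only listed gene name read here was that of the gene on the 3′ side of a window. It was often not the gene that the window lies in. Of the 771 CG windows, 616 had a listed name found in the annotation; 261 of these overlapped the gene of that name and 355 did not, of which 255 lay in another protein-coding gene. Of 242 promoter windows by the deposited class, 169 (69.8%) overlapped a gene that codes for protein. The FBH2 window is listed with AT4G09190, the XRN2 window with HVA22I, the EDR1 window with XI-C and the AT5G01760 windows with RAPTOR2. All of these genes lie on the plus strand, while MLO8, TPR16 and TPP2, on the minus strand, were listed under their own names. The mismatches were not counted by strand. By strand and annotation, 65 windows outside protein-coding genes lay in the 2 kb before a gene's start, 49 higher and 16 lower in S2γ30.

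Of the 81 windows with a single CG, 30 had the site in coding sequence, 19 in an intron and 16 in the 2 kb upstream of a gene. The upstream sites were higher in S2γ30 in 14 of 16 windows, the intron sites in 9 of 19 and the coding sites in 14 of 30. Intergenic sites were higher in 7 of 10, those in other exons in 1 of 3 and those in other genes in 0 of 3. These counts are small and the directions were not tested. The base before the CG of the 81 windows, read on both strands, was T in 42.0% and G in 9.88%. Of all CG sites of the reference these were 34.8% and 15.4%. The 81 windows were chosen by their methylation difference and this was not tested.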
